A study of Mus musculus with 9 samples.

Results

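The 51 genes described here copy DNA or prepare the cell to do so: they license replication origins, form the replication fork, supply deoxynucleotides, package new DNA or belong to the E2F and cyclin E switch into S phase. They were chosen by symbol from a list written with earlier results of these data known. All 51 were found among the 54532 genes of the deposited tables. The cells were 3T3-L1, a mouse preadipocyte line from ATCC that forms lipid-filled adipocytes when given adipogenic hormones. Every group was first held at confluence for 3 days. Undifferentiated cells received no hormones. Differentiated cells then received a differentiation medium containing insulin at 10 μg/mL, rosiglitazone at 1 μM, dexamethasone at 1 μM and the phosphodiesterase inhibitor 3-isobutyl-1-methylxanthine at 0.5 mM. Lysfree cells received the same medium with no lysine added. By the study's methods, cells were held before induction in DMEM with bovine calf serum. The differentiation medium had fetal bovine serum and another base, a DMEM made without arginine and lysine to which these were added back. RNA was collected after the differentiation period, and the study assayed its medium after 3 days of treatment. Its text does not state when Undifferentiated cells were collected. Hormones, serum, base medium and any difference in time in culture therefore cannot be told apart in a comparison with Undifferentiated cells. Below, "with hormones" stands for the whole change of medium and any such difference in time. Poly A RNA was sequenced from 3 libraries per group, 9 in all. No source states that the 3 libraries of a group came from separate cultures, so p-values measure only the spread between these libraries.

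Before S phase, the origin recognition complex, Cdc6 and Cdt1 load the ring-shaped Mcm2-7 helicase onto DNA, and Cdc45 and the GINS complex then turn it on. PCNA, a sliding clamp placed by replication factor C, holds the polymerases on the template. Ribonucleotide reductase, thymidine kinase and thymidylate synthase supply the building blocks. Transcription of many of these genes is driven by E2F factors once cyclin-dependent kinases release them from the retinoblastoma protein. Confluent 3T3-L1 preadipocytes given adipogenic hormones are known to re-enter the cell cycle for a limited number of divisions, called mitotic clonal expansion. The comparisons ask what these genes did in hormone medium and what they did when that medium lacked lysine.

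E2F factors bind DNA at short GC-rich sites, so RefSeq promoter windows (250 bases before to 50 after each start, GRCm38.p6) were searched for TTTCGCGC, TTTGGCGC and TTTCCCGC on both strands, where the first and the second can overlap. Of the 51 genes, 42 had a window, and 18 of these (42.9%) held at least 1 of the 3 motifs. The share over all 27025 genes with a window was 2.12%, and over protein-coding genes 2.76%. Since the list was drawn up partly from genes linked to E2F, this is a description of the list. A motif is a match of letters and does not show that a factor was bound. Only these exact strings were searched, so a window without a match may still hold an E2F site. The following stretches are shown because they carry these motifs upstream of members described below. Each lies outside annotated exons, is written 5′ to 3′ on the gene's strand, and carries its E2F motifs (or their reverse complements, overlapping matches joined) in capitals.
Mcm5 (chr8:75109321-75109402, plus strand): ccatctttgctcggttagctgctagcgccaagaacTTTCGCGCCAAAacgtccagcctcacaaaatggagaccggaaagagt
Mcm6 (chr1:128359710-128359850, minus strand): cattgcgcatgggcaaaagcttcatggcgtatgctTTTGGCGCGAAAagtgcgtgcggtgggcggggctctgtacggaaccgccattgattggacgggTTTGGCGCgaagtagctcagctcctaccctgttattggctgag
Dtl (chr1:191575545-191575587, minus strand): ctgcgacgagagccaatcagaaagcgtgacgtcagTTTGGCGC
Pola1 (chrX:93632251-93632328, minus strand): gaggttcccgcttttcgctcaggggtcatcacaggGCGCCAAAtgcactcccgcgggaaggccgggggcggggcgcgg
Uhrf1 (chr17:56304093-56304170, plus strand): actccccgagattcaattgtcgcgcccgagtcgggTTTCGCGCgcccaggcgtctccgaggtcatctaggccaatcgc
The Uhrf1 stretch lies within the span of its longest annotated transcripts, and the RefSeq starts of Mcm5 and Mcm6 did not match a transcript of GENCODE vM21. By role, 7 of 10 licensing genes with a window held an E2F motif, 4 of 7 polymerase and primase genes, 3 of 5 genes of chromatin assembly and maintenance methylation, and 0 of 4 genes of dNTP supply. The NF-Y motif CCAAT was found in 27 of 42 windows (64.3%) and in 41.1% of all genes with a window. Among the 28 mitosis genes with a window, 1 (3.57%) held an E2F motif.

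Total counts per library ranged from 15880144 to 21806693, and single members were counted between 13 and 4716 times in a library. Within groups, Lysfree 1 stood apart over all genes: the chi-square per degree of freedom against the other Lysfree libraries was 39.6 and 40.7, against 2.67 between those. It also deviated by more than 1.5-fold from the mean of the other Lysfree libraries in 5 of the 51 members. Where leaving it out changed the call of a member or moved a called value by over 1.5 times, the value without it is given too. The labels call the cells fibroblasts. All 7 adipocyte markers were higher in Differentiated than in Undifferentiated cells (edgeR, adjusted p under 0.05), where 23% of all genes passed upward. Their summed levels were 6470 to 6780 FPKM (fragments per kilobase of gene, scaled to the library) in Differentiated, against 298 to 378 in Undifferentiated and 234 to 311 in Lysfree. A large part of the last sums was Lpl, with means of 146 FPKM in Undifferentiated and 188 in Lysfree cells. Of the 7, 5 were lower and 1, Lpl, was higher in Lysfree than in Undifferentiated cells (edgeR, adjusted p under 0.05). Over all genes, 17.1% and 18% passed in those directions. The 7 preadipocyte and fibroblast markers summed to 4300 to 4720 FPKM in Undifferentiated, 1060 to 1070 in Differentiated and 2200 to 2230 in Lysfree libraries, and their part in the results below was not tested. Of the 8 markers of blood, endothelial, epithelial and muscle cells, Cd68 was at 1.49 to 5 FPKM and the other 7 were each at or below 0.129, with Adgre1, Epcam and Myod1 at 0 in all libraries. In bulk RNA, fewer cells of a type and less RNA per cell cannot be told apart.

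In hormone medium nearly the whole list rose. Of the 51 members, 45 were higher in Differentiated than in Undifferentiated cells and 1, E2f1, was lower at an adjusted p under 0.05 (edgeR), where 23% and 23.2% of all 24402 genes tested passed in those directions. The median log2 fold change of the members was 0.76, against 0.02 over all genes. A change of at least 2-fold was reached by 19 members upward (10.4% of all genes) and by 0 downward (11.4%). Among genes with a mean of at least 1 FPKM in a group, which all 51 members reached in Differentiated cells, 39% passed upward and 37.7% downward. The FPKM of the groups did not overlap in 46 members that were higher and in 1 that was lower, where all genes gave 26.2% and 24.7%. The 5 members that did not pass were Mcm2, Mcm4, Gins3, Pold3 and Chaf1b.

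Without lysine most members were lower than in Differentiated cells, and a few were higher. Comparing Lysfree with Differentiated cells, 33 members fell and 3 rose (edgeR, adjusted p under 0.05), against 18.8% and 19.7% of 24130 genes, and the median was -0.59 against -0.06 for all genes. Of these, 12 fell and 2 rose by at least 2-fold, where 10.5% and 8.14% of all genes did. Libraries of these groups did not overlap in 35 members that were lower and 3 that were higher, against 25.3% and 21.3% of all genes. The 3 members that rose were Orc2, Mcm2 and Chaf1b. Among genes with a mean of at least 1 FPKM in a group, 30.6% passed downward and 33.9% upward. Leaving out Lysfree 1 gave 39 members lower and 5 higher, and in that fit 22.6% of all genes passed in each direction. Relative to Undifferentiated cells, Lysfree cells had 22 members higher and 6 lower, against 18% and 17.1% of 23994 genes, with a median of 0.25 against -0.02. At 2-fold or more these were 7 and 0 members, where 5.52% and 8.76% of all genes passed. The FPKM did not overlap in 22 members that were higher and 12 that were lower, against 20.2% and 23.2% of all genes. Among genes with a mean of at least 1 FPKM in a group, 32.8% passed upward and 27.5% downward, and 34.1% and 33.7% did not overlap. Without Lysfree 1, 22 members were higher and 13 lower, where 20.2% and 20.4% of all genes passed. The comparisons share their control libraries, so they are not independent of each other.

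**Figure D1:**
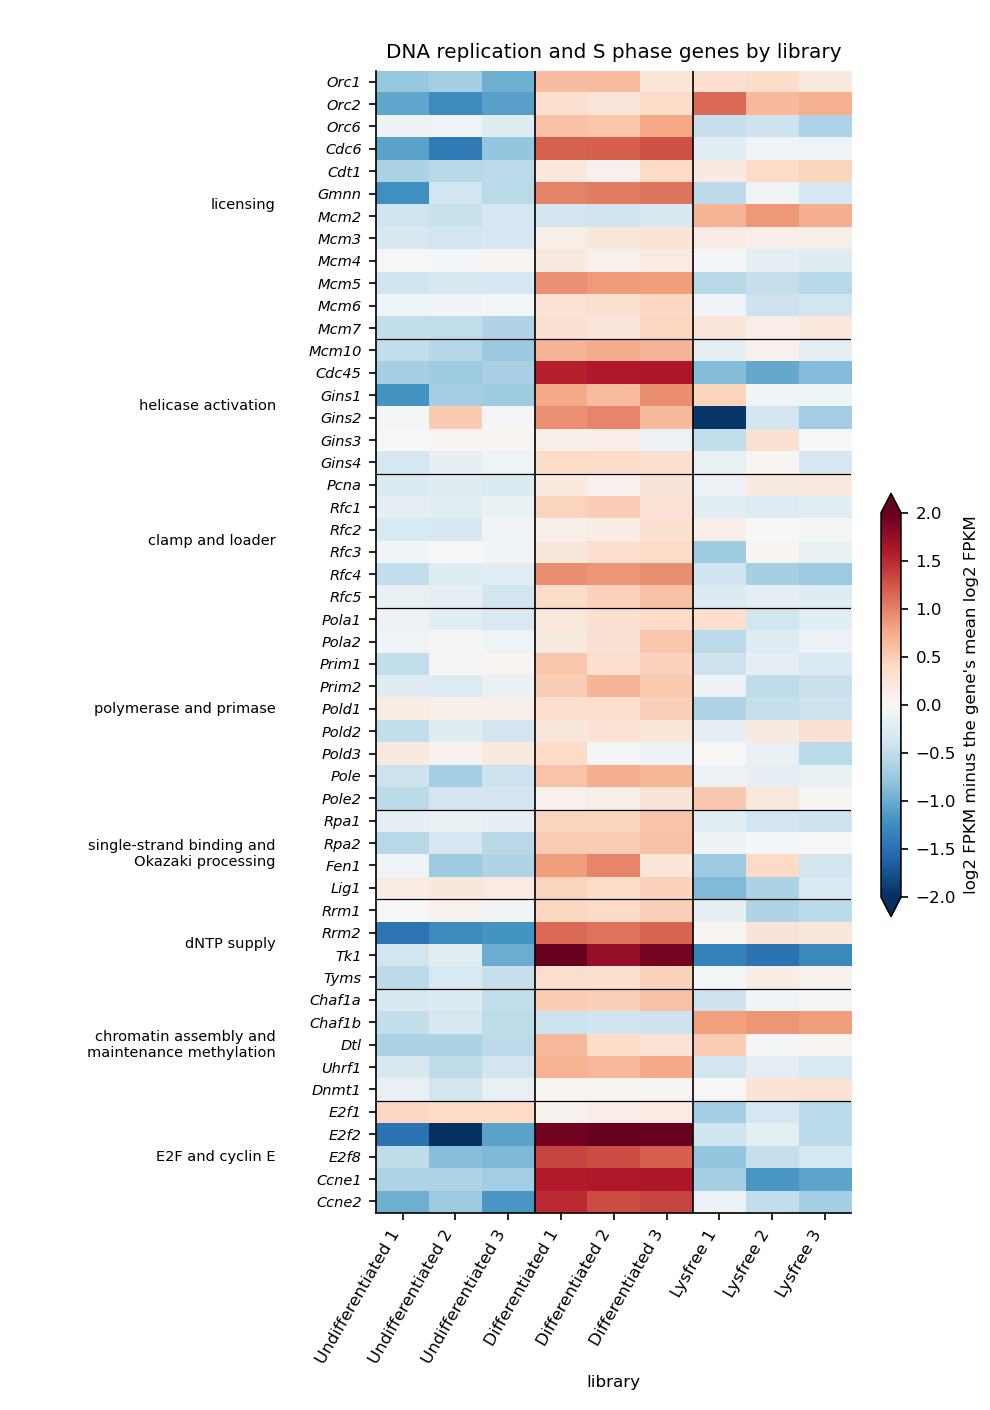
Level of each of the 51 genes in each of the 9 libraries, as log2 FPKM minus the gene's mean log2 FPKM over the libraries (colour, limited to 2 either way), with genes in rows by role and libraries in columns by group. Most genes are highest in the 3 Differentiated libraries, whereas Orc2, Mcm2 and Chaf1b are highest in the 3 Lysfree libraries and E2f1 is highest in the 3 Undifferentiated libraries.

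Summed over the 51 genes, FPKM was 344, 356 and 354 in the Undifferentiated libraries, 599, 589 and 620 in the Differentiated libraries and 421, 437 and 429 in the Lysfree libraries. The 3 groups did not overlap, and Lysfree lay between the others. The 12 licensing genes summed to 113, 113 and 114 FPKM in Undifferentiated, 173, 170 and 184 in Differentiated and 168, 161 and 157 in Lysfree cells, so that Lysfree lay just below Differentiated. Within that sum Mcm2 rose from a mean of 15.2 FPKM in Differentiated to 33 in Lysfree cells. Between these groups 5 of the 12 fell and 2 rose (edgeR, adjusted p under 0.05), against 18.8% and 19.7% of all genes. The median log2 fold change of the 12 was -0.18. The E2F and cyclin E genes instead summed to 20.5, 20.5 and 20 FPKM in Undifferentiated, 47.9, 47.8 and 48.7 in Differentiated and 14.9, 14.5 and 13.6 in Lysfree cells. That low sum came with the fall of E2f1, the most abundant of the 5 in Undifferentiated cells, while the median log2 fold change of the role against Undifferentiated cells was 0.27, with 2 members higher and 1 lower. Of all genes, 18% and 17.1% passed in those directions.

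Licensing begins with the origin recognition complex, which marks origins. Orc1, its largest subunit, rose in Differentiated (log2 fold change 1.28 ± 0.21 SE, adjusted p = 4.1e-09, edgeR) and in Lysfree (1.15 ± 0.23, adjusted p = 0.00013) over Undifferentiated cells. Orc2, a core subunit, measured 5.17, 4.39 and 5.02 FPKM in Undifferentiated, 13.3, 12.6 and 13.7 in Differentiated and 23.3, 16.7 and 17.5 in Lysfree libraries. No group overlapped another, and Lysfree 1 was the highest library. Orc2 rose by 2.02 ± 0.13 on the log2 scale in Lysfree over Undifferentiated cells (edgeR, adjusted p = 1.3e-14), the largest rise of any member there, and by 0.60 ± 0.12 over Differentiated cells (adjusted p = 0.00022). Without Lysfree 1 these were 1.84 and 0.42, both still passing. Orc6, needed to complete loading of the helicase, took another course and fell in Lysfree against Differentiated cells by 1.08 ± 0.12 on the log2 scale (edgeR, adjusted p = 1.4e-07). Against Undifferentiated cells it was at -0.31 ± 0.13 (adjusted p = 0.067, edgeR), or -0.35 without Lysfree 1 (adjusted p = 0.0027). Orc2 overlaps Nif3l1 and Orc6 overlaps Vps35 in the annotation, and the strand setting of the counting is not given in the sources used here, so reads of the overlaps could belong to either gene.

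The helicase loaders and their inhibitor separated as well. Cdc6 measured 0.619, 0.488 and 0.764 FPKM in Undifferentiated, 2.95, 2.97 and 3.15 in Differentiated and 1.12, 1.23 and 1.22 in Lysfree libraries. It was 4.82-fold higher in Differentiated than in Undifferentiated cells (log2 2.27 ± 0.15, adjusted p = 1.4e-51, edgeR) and 2.42-fold lower in Lysfree than in Differentiated cells (adjusted p = 3.2e-07). Lysfree lay between the other groups without overlap, and above Undifferentiated by 0.99 ± 0.22 on the log2 scale (adjusted p = 0.00033, edgeR). Without Lysfree 1 this was 1.01 (adjusted p = 2.1e-06, edgeR), just over 2-fold. Cdt1, the second loader, measured 5.89, 6.21 and 6.36 FPKM in Undifferentiated, 10.6, 9.68 and 12.1 in Differentiated and 10.4, 11.9 and 12.5 in Lysfree libraries. The libraries of both hormone groups overlapped and all exceeded those of Undifferentiated cells. The rise of Cdt1 was 0.79 ± 0.09 on the log2 scale with lysine (adjusted p = 1.1e-17, edgeR) and 0.96 ± 0.13 without (adjusted p = 1.5e-07). Leaving out Lysfree 1 moved the latter to 1.01 (adjusted p = 8.3e-24, edgeR), just over 2-fold. Between the hormone groups the difference was 0.17 ± 0.12 (adjusted p = 0.31), or 0.22 without Lysfree 1, which passed (adjusted p = 0.013, edgeR). Gmnn encodes geminin, which blocks Cdt1 during S and G2 phase, and measured 1.22, 2.18 and 1.96 FPKM in Undifferentiated, 5.69, 5.83 and 6 in Differentiated and 1.98, 2.72 and 2.25 in Lysfree libraries. Only the Differentiated libraries stood clear. Gmnn rose by 1.69 ± 0.18 with hormones (adjusted p = 8.8e-20, edgeR) and fell by 1.26 ± 0.19 without lysine relative to Differentiated cells (adjusted p = 9.1e-06), both on the log2 scale. In FPKM, Cdt1 exceeded Gmnn 4.84, 2.85 and 3.25 times in Undifferentiated, 1.87, 1.66 and 2.02 times in Differentiated and 5.26, 4.37 and 5.55 times in Lysfree libraries.

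The 6 subunits of the Mcm2-7 ring act together in equal numbers as proteins, yet their mRNAs did not move together. Mcm2 measured 14.8, 14.4 and 15.3 FPKM in Undifferentiated, 15.1, 14.8 and 15.6 in Differentiated and 31.4, 35.5 and 32.2 in Lysfree libraries. The Undifferentiated and Differentiated libraries overlapped, and all Lysfree libraries were clear of both. Its log2 fold change was 0.01 ± 0.06 in Differentiated against Undifferentiated cells (adjusted p = 0.93, edgeR), a value that changed sign with library sizes alone. In Lysfree cells Mcm2 rose by 1.19 ± 0.09 over Differentiated (adjusted p = 5.5e-10, edgeR) and by 1.21 ± 0.10 over Undifferentiated cells (adjusted p = 6.2e-12). Mcm5 followed the opposite course, with 5.57, 5.86 and 5.79 FPKM in Undifferentiated, 13.8, 13.2 and 13.1 in Differentiated and 4.99, 5.31 and 4.97 in Lysfree libraries. It was 2.29-fold higher in Differentiated than in Undifferentiated cells (log2 1.20 ± 0.08, adjusted p = 4.2e-48, edgeR) and 2.52-fold lower in Lysfree than in Differentiated cells (adjusted p = 1.8e-09), which left it at -0.13 ± 0.13 against Undifferentiated cells (adjusted p = 0.51). The ratio of Mcm2 to Mcm5 in FPKM was 2.66, 2.45 and 2.64 in Undifferentiated, 1.09, 1.12 and 1.19 in Differentiated and 6.29, 6.70 and 6.48 in Lysfree libraries.

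The other subunits lay between these courses. Mcm3 measured 15.6, 14.9 and 15.4 FPKM in Undifferentiated, 21.2, 22.9 and 23.5 in Differentiated and 21.9, 21.4 and 21.4 in Lysfree libraries. Mcm7 measured 15.0, 15.0 and 13.9 FPKM in Undifferentiated, 26.1, 24.9 and 28.4 in Differentiated and 24.8, 23.2 and 24.5 in Lysfree libraries. Both subunits were higher in every hormone-treated library than in any Undifferentiated library. Mcm3 rose by 0.53 ± 0.07 with lysine and 0.54 ± 0.10 without (adjusted p = 3.1e-15 and 5.3e-05, edgeR), and Mcm7 by 0.82 ± 0.06 and 0.77 ± 0.10 (adjusted p = 6.2e-39 and 1.4e-07). Between Lysfree and Differentiated cells the differences were 0.00 ± 0.09 for Mcm3 and -0.07 ± 0.09 for Mcm7 (adjusted p = 0.99 and 0.58, edgeR), the latter changing sign with library sizes alone. Mcm7 overlaps Cops6 and Ap4m1, and some of its reads could be theirs. Mcm4 measured 24.0, 23.8 and 25.0 FPKM in Undifferentiated, 27.2, 25.6 and 27.0 in Differentiated and 23.8, 21.4 and 20.3 in Lysfree libraries. It did not pass in any comparison in the main fit, although Lysfree against Differentiated cells (-0.22 ± 0.09, adjusted p = 0.073, edgeR) passed without Lysfree 1 (-0.31, adjusted p = 2.3e-07). That difference also passed with DESeq2 (-0.25, adjusted p = 0.041), with filterByExpr or at least 10 counts, in a fit of all 9 libraries and with limma. For Mcm4 in Differentiated against Undifferentiated cells, limma on log2 FPKM gave 0.13 and passed (adjusted p = 0.029 and 0.034 with pseudocounts of 1 and 0.1). Without that library Mcm4 was also lower than in Undifferentiated cells (-0.19, adjusted p = 0.015, edgeR). Mcm6 measured 14.6, 14.9 and 15.2 FPKM in Undifferentiated, 19.0, 19.3 and 20.8 in Differentiated and 14.8, 11.7 and 12.1 in Lysfree libraries. The Differentiated libraries were the highest, and Lysfree 1 lay among the Undifferentiated libraries while the others lay below them. Mcm6 rose by 0.38 ± 0.06 with hormones (adjusted p = 1e-08, edgeR) and fell by 0.55 ± 0.10 without lysine relative to Differentiated cells (adjusted p = 0.00017). Against Undifferentiated cells it was -0.16 ± 0.11 (adjusted p = 0.29, edgeR), and -0.30 without Lysfree 1 (adjusted p = 0.00033). Over the 6 subunits, the most abundant mRNA exceeded the least abundant, which was Mcm5 in every library, 4.30, 4.06 and 4.32 times in Undifferentiated, 1.97, 1.94 and 2.16 times in Differentiated and 6.29, 6.70 and 6.48 times in Lysfree libraries. Their sum was 122, 121 and 128 FPKM in Differentiated and 122, 119 and 115 FPKM in Lysfree libraries, against 89.6, 88.8 and 90.4 in Undifferentiated cells. The hormone groups overlapped through Lysfree 1 alone, and the other Lysfree libraries lay below every Differentiated library.

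**Figure D2:**
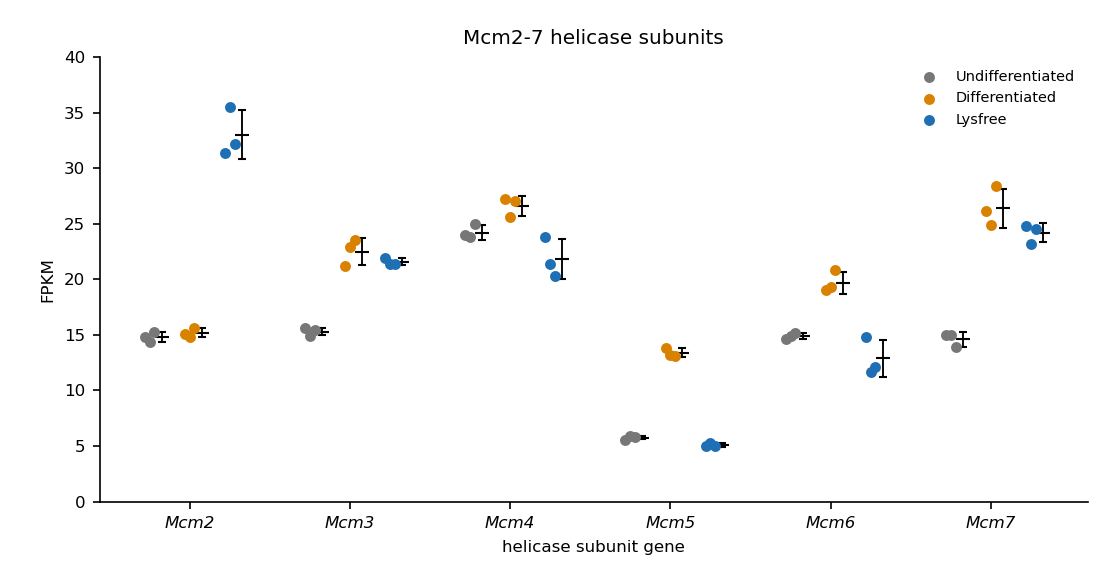
FPKM of the 6 Mcm2-7 helicase subunit genes, with a point for each of the 3 libraries per group and bars for the group mean and SD. Mcm2 is at 31.4 to 35.5 in Lysfree against 14.4 to 15.6 in the other libraries, whereas Mcm5 is at 13.1 to 13.8 in Differentiated against 4.97 to 5.86 in the other libraries.

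Of the 6 genes that activate the helicase, 5 rose in hormone medium and 5 fell in Lysfree against Differentiated cells (edgeR, adjusted p under 0.05). Among all genes, 23% and 18.8% did so. Cdc45, the subunit that joins Mcm2-7 and GINS at the fork, measured 2.74, 2.65 and 2.78 FPKM in Undifferentiated, 12.8, 13.3 and 13.4 in Differentiated and 2.40, 2.15 and 2.40 in Lysfree libraries. The Differentiated libraries were far above the rest, and the Lysfree libraries lay just below the Undifferentiated ones. It rose 4.75-fold with hormones (log2 2.25 ± 0.10, adjusted p = 1.9e-121, edgeR) and was 5.44-fold lower without lysine (log2 -2.44 ± 0.12, adjusted p = 8.1e-13), and the remaining difference from Undifferentiated cells was -0.19 ± 0.17 (adjusted p = 0.43). Cdc45 overlaps Ufd1, and reads of the overlap could belong to either gene. The 4 GINS subunits differed among themselves. Gins1 rose by 1.61 ± 0.17 with hormones and was higher in Lysfree than in Undifferentiated cells by 1.02 ± 0.22 (adjusted p = 1.4e-21 and 0.0003, edgeR). Its Lysfree libraries were at 5.33, 3.77 and 3.67 FPKM, and without Lysfree 1, the highest, the second rise was 0.81 (adjusted p = 0.00033, edgeR) and under 2-fold. Gins2 measured 1.36, 1.99 and 1.37 FPKM in Undifferentiated, 2.60, 2.73 and 2.18 in Differentiated and 0.361, 1.06 and 0.855 in Lysfree libraries. All Lysfree libraries were below all others, Lysfree 1 most of all. Gins2 was lower by 1.64 ± 0.25 than in Differentiated (adjusted p = 1.7e-05, edgeR) and by 1.00 ± 0.26 than in Undifferentiated cells (adjusted p = 0.0024), the largest fall of any member against the latter. Without Lysfree 1 these differences were -1.34 and -0.70, and limma on log2 FPKM did not call the second (adjusted p = 0.077 and 0.092 with pseudocounts of 1 and 0.1). Gins2 overlaps Gse1, so that its low counts are uncertain. Gins3 stayed within 0.02 of 0 on the log2 scale in all 3 comparisons, with SEs of 0.16 to 0.20, and passed in none. Without Lysfree 1 it was at 0.14 in Lysfree against Undifferentiated and at 0.16 against Differentiated cells, neither passing. Gins4 rose by 0.53 ± 0.09 (adjusted p = 1.4e-08, edgeR) and fell by 0.43 ± 0.12 without lysine (adjusted p = 0.0076). Mcm10, which helps to fire licensed origins, rose by 1.26 ± 0.14 and fell by 0.74 ± 0.15 in the same comparisons (adjusted p = 4.6e-18 and 0.0005, edgeR).

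All 6 clamp and clamp loader genes rose in hormone medium, where 23% of all genes did, by a median of 0.49 on the log2 scale. Pcna, the clamp itself, measured 31.1, 32.4 and 31.6 FPKM in Undifferentiated, 43.9, 40.4 and 45.7 in Differentiated and 35.3, 43.2 and 43.6 in Lysfree libraries. The hormone groups overlapped, and both lay above Undifferentiated cells. It rose by 0.42 ± 0.06 with lysine (adjusted p = 4.3e-11, edgeR) and by 0.41 ± 0.11 without (adjusted p = 0.0023), and the difference between these groups was -0.02 ± 0.10 (adjusted p = 0.87), which turned to 0.05 with library sizes alone or without Lysfree 1. The processed copy Pcna-ps2 held 21.3% to 29.5% of the counts of both loci, so the level of Pcna is uncertain. Rfc4, a small subunit of the loader, rose by 1.20 ± 0.10 and fell without lysine by 1.44 ± 0.13 (adjusted p = 3.7e-31 and 1.3e-08, edgeR), while it overlaps Eif4a2, whose reads could be shared. Against Undifferentiated cells Lysfree was at -0.23 ± 0.16 (adjusted p = 0.33, edgeR), or -0.35 without Lysfree 1 (adjusted p = 0.037). Rfc1, the large subunit, Rfc3 and Rfc5 also fell in Lysfree against Differentiated cells, by 0.58 ± 0.09, 0.48 ± 0.16 and 0.65 ± 0.12 on the log2 scale (edgeR, all adjusted p under 0.05). Lysfree 1 was the lowest library for Rfc3, for which the difference without it was smaller (-0.32, adjusted p = 0.0019, edgeR). For Rfc2 the difference was -0.10 ± 0.11 (adjusted p = 0.5, edgeR), which passed without Lysfree 1 (-0.17, adjusted p = 0.036). Rfc2 overlaps Lat2 and Rfc5 overlaps Wsb2.

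Of the 9 polymerase and primase genes, 8 rose in hormone medium, with a median of 0.55, and 5 fell in Lysfree against Differentiated cells. The shares of all genes there were 23% and 18.8%. Pole, the catalytic subunit of the leading-strand polymerase epsilon, rose most, by 1.14 ± 0.11 (adjusted p = 5.8e-23, edgeR), and fell without lysine by 0.73 ± 0.13 (adjusted p = 8e-05). Its partner Pole2 rose by 0.55 ± 0.15 and remained higher than in Undifferentiated cells without lysine, by 0.73 ± 0.18 (adjusted p = 0.00058 and 0.0014, edgeR). Pold1, the catalytic subunit of the lagging-strand polymerase delta, measured 6.37, 6.15 and 6.25 FPKM in Undifferentiated, 7.20, 7.23 and 7.96 in Differentiated and 3.74, 4.18 and 4.31 in Lysfree libraries. Every Lysfree library was below every other. Pold1 fell in Lysfree cells by 0.81 ± 0.12 against Differentiated (adjusted p = 7.8e-06, edgeR) and by 0.57 ± 0.13 against Undifferentiated cells (adjusted p = 0.00046). Its rise with hormones, 0.23 ± 0.08 (adjusted p = 0.014, edgeR), did not pass in a single fit of all 9 libraries (adjusted p = 0.12) or without Differentiated 3 (adjusted p = 0.13). Pold2, an accessory subunit of the same enzyme, was higher in both hormone groups, by 0.58 ± 0.07 and 0.53 ± 0.12 (adjusted p = 1.9e-15 and 0.00063, edgeR). Pold3, another accessory subunit, passed in no comparison with all libraries, and without Lysfree 1 it was lower in Lysfree than in Differentiated (-0.39, adjusted p = 0.0044, edgeR) and Undifferentiated cells (-0.47, adjusted p = 0.0013). The primase subunits Prim1 and Prim2, which make the RNA primers, rose by 0.55 ± 0.11 and 0.76 ± 0.10 and fell without lysine by 0.68 ± 0.14 and 0.85 ± 0.13 (edgeR, all adjusted p under 0.05). Of the partners in polymerase alpha, Pola2 fell by 0.58 ± 0.13 (adjusted p = 0.0012, edgeR), and Pola1, whose promoter stretch is shown above, was at -0.29 ± 0.15 (adjusted p = 0.14). Pola1 measured 3.12, 3.35 and 3.53 FPKM in Differentiated and 3.40, 2.09 and 2.33 in Lysfree libraries, and without Lysfree 1, which lay among the Differentiated libraries, the difference passed (-0.55, adjusted p = 1.2e-08, edgeR).

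Rpa1 and Rpa2, which coat single-stranded DNA, and Fen1 and Lig1, which trim and join Okazaki fragments, all rose in hormone medium and all fell in Lysfree against Differentiated cells. In these comparisons 23% of all genes rose and 18.8% fell. Lig1 measured 7.25, 7.61 and 7.32 FPKM in Undifferentiated, 8.84, 8.42 and 8.98 in Differentiated and 3.53, 4.20 and 5.25 in Lysfree libraries. The Lysfree libraries were the lowest and did not overlap either group. It fell by 0.95 ± 0.14 against Differentiated (adjusted p = 6.3e-06, edgeR) and by 0.72 ± 0.14 against Undifferentiated cells (adjusted p = 7e-05). The rise of Lig1 with hormones, 0.21 ± 0.08 (adjusted p = 0.02, edgeR), did not pass without Undifferentiated 1, Differentiated 1 or Differentiated 3 (adjusted p = 0.057, 0.07 and 0.085), in the fit of all 9 libraries (adjusted p = 0.15) or with library sizes alone (adjusted p = 0.058). Lig1 overlaps Zswim9. Rpa1 fell by 0.75 ± 0.09 and Rpa2 by 0.52 ± 0.12 in Lysfree against Differentiated cells (adjusted p = 1e-06 and 0.0011, edgeR). Against Undifferentiated cells Rpa1 was at -0.13 ± 0.10 in Lysfree cells (adjusted p = 0.37, edgeR), or -0.22 without Lysfree 1 (adjusted p = 0.0069). Fen1, which overlaps Tmem258, was at 0.611 to 2.00 FPKM, and its fall of 0.80 ± 0.28 (adjusted p = 0.029, edgeR) came with overlapping libraries.

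The genes of dNTP supply showed some of the largest changes and split in Lysfree cells. Rrm2 encodes the small subunit of ribonucleotide reductase that is made in S phase, and measured 7.99, 9.13 and 9.60 FPKM in Undifferentiated, 47.8, 46.3 and 49.0 in Differentiated and 22.6, 26.1 and 25.7 in Lysfree libraries. The groups were far apart, with Lysfree in the middle. Rrm2 rose 5.27-fold with hormones (log2 2.40 ± 0.07, adjusted p = 4.4e-260, edgeR) and 2.88-fold in Lysfree over Undifferentiated cells (log2 1.53 ± 0.12, adjusted p = 1.4e-12), and was 1.84-fold lower in Lysfree than in Differentiated cells (adjusted p = 1.2e-07). Rrm1, the large subunit, measured 9.07, 9.75 and 8.78 FPKM in Undifferentiated, 12.4, 11.9 and 12.8 in Differentiated and 8.14, 6.04 and 6.28 in Lysfree libraries. Here Lysfree was the lowest group. Rrm1 rose by 0.40 ± 0.06 with hormones (adjusted p = 5.5e-11, edgeR) and fell in Lysfree cells by 0.79 ± 0.11 against Differentiated (adjusted p = 2.6e-06) and by 0.39 ± 0.11 against Undifferentiated cells (adjusted p = 0.0054). The last did not pass without Lysfree 2 (-0.31, adjusted p = 0.05, edgeR). The ratio of Rrm2 to Rrm1 in FPKM was 0.881, 0.936 and 1.09 in Undifferentiated, 3.85, 3.90 and 3.83 in Differentiated and 2.78, 4.31 and 4.09 in Lysfree libraries. Rrm2b, the small subunit used outside S phase and not a member, rose by 0.93 ± 0.13 in Lysfree over Differentiated cells (adjusted p = 6.6e-06, edgeR), and Rrm2 exceeded it 3.79 to 5.24 times in Undifferentiated, 18 to 19.3 times in Differentiated and 3.91 to 6.79 times in Lysfree libraries.

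Tk1 encodes the thymidine kinase of the salvage pathway and measured 2.57, 2.88 and 1.68 FPKM in Undifferentiated, 13.5, 11.1 and 12.5 in Differentiated and 1.31, 1.20 and 1.36 in Lysfree libraries. The Lysfree libraries were below all Undifferentiated libraries. Tk1 rose 5.02-fold with hormones (log2 2.33 ± 0.09, adjusted p = 1e-158, edgeR) and was 9.15-fold lower in Lysfree than in Differentiated cells (log2 -3.19 ± 0.13, adjusted p = 2.1e-14), the largest fall of any member. It was also lower than in Undifferentiated cells, by 0.84 ± 0.18 on the log2 scale (adjusted p = 0.00037, edgeR). Tk1 overlaps Afmid. Tyms, the thymidylate synthase of the de novo route, measured 2.57, 2.99 and 2.69 FPKM in Undifferentiated, 4.71, 4.65 and 5.10 in Differentiated and 3.62, 4.09 and 3.88 in Lysfree libraries. Lysfree lay between the other groups without overlap. Tyms rose by 0.78 ± 0.09 and by 0.54 ± 0.14 over Undifferentiated cells (adjusted p = 6.2e-16 and 0.0017, edgeR). Between Lysfree and Differentiated cells the difference was -0.25 ± 0.12 (adjusted p = 0.096, edgeR), which passed without Lysfree 1 (-0.23, adjusted p = 0.023) and with DESeq2 (-0.28, adjusted p = 0.046). The summed FPKM of these 4 genes was 22.2 to 24.8 in Undifferentiated, 73.9 to 79.4 in Differentiated and 35.7 to 37.4 in Lysfree libraries, of which Tk1 made up 7.39% to 11.6%, 15.0% to 17.2% and 3.21% to 3.68%.

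Among the genes that package and methylate new DNA, the subunits of chromatin assembly factor 1 parted. Chaf1b measured 3.29, 3.68 and 3.23 FPKM in Undifferentiated, 3.42, 3.48 and 3.45 in Differentiated and 8.08, 8.46 and 8.21 in Lysfree libraries. The first groups overlapped and the Lysfree libraries were clear of both. Chaf1b was 2.5-fold higher in Lysfree than in Differentiated (log2 1.32 ± 0.11, adjusted p = 4.6e-09, edgeR) and also 2.5-fold higher than in Undifferentiated cells (adjusted p = 2e-10), while the hormone medium with lysine gave -0.01 ± 0.11 (adjusted p = 0.96), a value that changed sign with limma. Chaf1a, the large subunit, instead rose by 0.85 ± 0.09 with hormones and fell by 0.62 ± 0.13 without lysine (adjusted p = 4.8e-20 and 0.00045, edgeR). In Lysfree against Undifferentiated cells it was at 0.25 ± 0.14 (adjusted p = 0.2, edgeR), or 0.33 without Lysfree 1 (adjusted p = 0.0057). Chaf1a overlaps Ubxn6. Uhrf1, which brings the maintenance methyltransferase to newly copied DNA, measured 7.76, 6.83 and 7.49 FPKM in Undifferentiated, 15.7, 15.2 and 16.4 in Differentiated and 7.43, 8.46 and 7.85 in Lysfree libraries. The Lysfree libraries overlapped those of Undifferentiated cells. Uhrf1 rose by 1.07 ± 0.07 and fell by 0.93 ± 0.10 in Lysfree against Differentiated cells (adjusted p = 3.1e-46 and 2e-07, edgeR). Dnmt1, that methyltransferase, measured 10.6, 9.17 and 10.6 FPKM in Undifferentiated, 12.2, 12.1 and 12.1 in Differentiated and 11.7, 14.2 and 14.4 in Lysfree libraries. Lysfree 1 was below the Differentiated libraries and the other Lysfree libraries were above them. Dnmt1 rose by 0.24 ± 0.06 with lysine and by 0.46 ± 0.11 without (adjusted p = 0.00055 and 0.00087, edgeR). The difference between the hormone groups, 0.22 ± 0.10 (adjusted p = 0.1, edgeR), passed without Lysfree 1 (0.29, adjusted p = 3.2e-07). Dtl, which targets Cdt1 for destruction in S phase, rose by 1.01 ± 0.10 and 0.84 ± 0.15 over Undifferentiated cells (adjusted p = 6.5e-25 and 1.8e-05, edgeR) and differed by -0.18 ± 0.14 between the hormone groups (adjusted p = 0.37). It measured 2.51, 2.07 and 1.91 FPKM in Differentiated and 2.28, 1.55 and 1.66 in Lysfree libraries, and only Lysfree 1 overlapped the Differentiated ones. Without that library Dtl was lower in Lysfree than in Differentiated cells (-0.39, adjusted p = 5.8e-05, edgeR) and its rise over Undifferentiated cells was 0.63 (adjusted p = 1.4e-07).

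The E2F and cyclin E genes had the largest median changes of any role, 2.21 in Differentiated against Undifferentiated and -1.74 in Lysfree against Differentiated cells. E2f2, an activating E2F factor, measured 0.231, 0.121 and 0.307 FPKM in Undifferentiated, 2.45, 2.65 and 2.75 in Differentiated and 0.490, 0.569 and 0.443 in Lysfree libraries. It stood without overlap in the order Undifferentiated, Lysfree, Differentiated. E2f2 rose by 3.59 ± 0.19 with hormones (adjusted p = 1.3e-74, edgeR), the largest change of any member, and fell by 2.32 ± 0.18 without lysine (adjusted p = 8.5e-10). In Lysfree over Undifferentiated cells it rose by 1.26 ± 0.33 (adjusted p = 0.0022, edgeR), from as few as 13 counts in a library, and limma on log2(FPKM + 0.1) did not call it (adjusted p = 0.06). E2f1, also an activator, ran against the list, with 12.8, 12.7 and 12.7 FPKM in Undifferentiated, 10.1, 10.5 and 10.8 in Differentiated and 6.01, 7.53 and 6.62 in Lysfree libraries. The groups did not overlap and E2f1 was lowest without lysine. It fell by 0.31 ± 0.08 with hormones (adjusted p = 0.00037, edgeR), by 0.58 ± 0.12 from Differentiated to Lysfree (adjusted p = 0.00054) and by 0.87 ± 0.13 from Undifferentiated to Lysfree cells (adjusted p = 6.8e-07). E2f8, a repressor that is itself an E2F target, measured 0.586, 0.461 and 0.447 FPKM in Undifferentiated, 2.11, 2.05 and 1.90 in Differentiated and 0.481, 0.607 and 0.653 in Lysfree libraries. The outer groups overlapped. E2f8 rose by 1.98 ± 0.17 and fell by 1.73 ± 0.18 in Lysfree against Differentiated cells (adjusted p = 1.7e-31 and 8.1e-08, edgeR).

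Cyclin E activates Cdk2 at the start of S phase. Ccne1 measured 5.52, 5.51 and 5.25 FPKM in Undifferentiated, 25.3, 25.7 and 26.0 in Differentiated and 5.37, 3.78 and 4.10 in Lysfree libraries. Lysfree 1 lay among the Undifferentiated libraries and the others below them. Ccne1 rose 4.63-fold (log2 2.21 ± 0.08, adjusted p = 3.4e-153, edgeR) and was 5.57-fold lower without lysine (log2 -2.48 ± 0.13, adjusted p = 1.3e-12). Against Undifferentiated cells Lysfree was at -0.25 ± 0.16 (adjusted p = 0.24, edgeR), or -0.44 without Lysfree 1 (adjusted p = 0.0025). Ccne2 measured 1.42, 1.70 and 1.25 FPKM in Undifferentiated, 7.90, 6.90 and 7.17 in Differentiated and 2.59, 1.98 and 1.74 in Lysfree libraries. The Lysfree libraries were slightly above the Undifferentiated ones. Ccne2 rose by 2.29 ± 0.12 with hormones and fell by 1.74 ± 0.15 without lysine (adjusted p = 2.2e-80 and 5.3e-09, edgeR). Its rise in Lysfree over Undifferentiated cells, 0.57 ± 0.20 (adjusted p = 0.024, edgeR), did not pass with DESeq2 (adjusted p = 0.053) or without Lysfree 1 (0.36, adjusted p = 0.1), Undifferentiated 1 (adjusted p = 0.057) or Undifferentiated 3 (adjusted p = 0.15). Ccne2 overlaps Ints8.

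**Figure D3:**
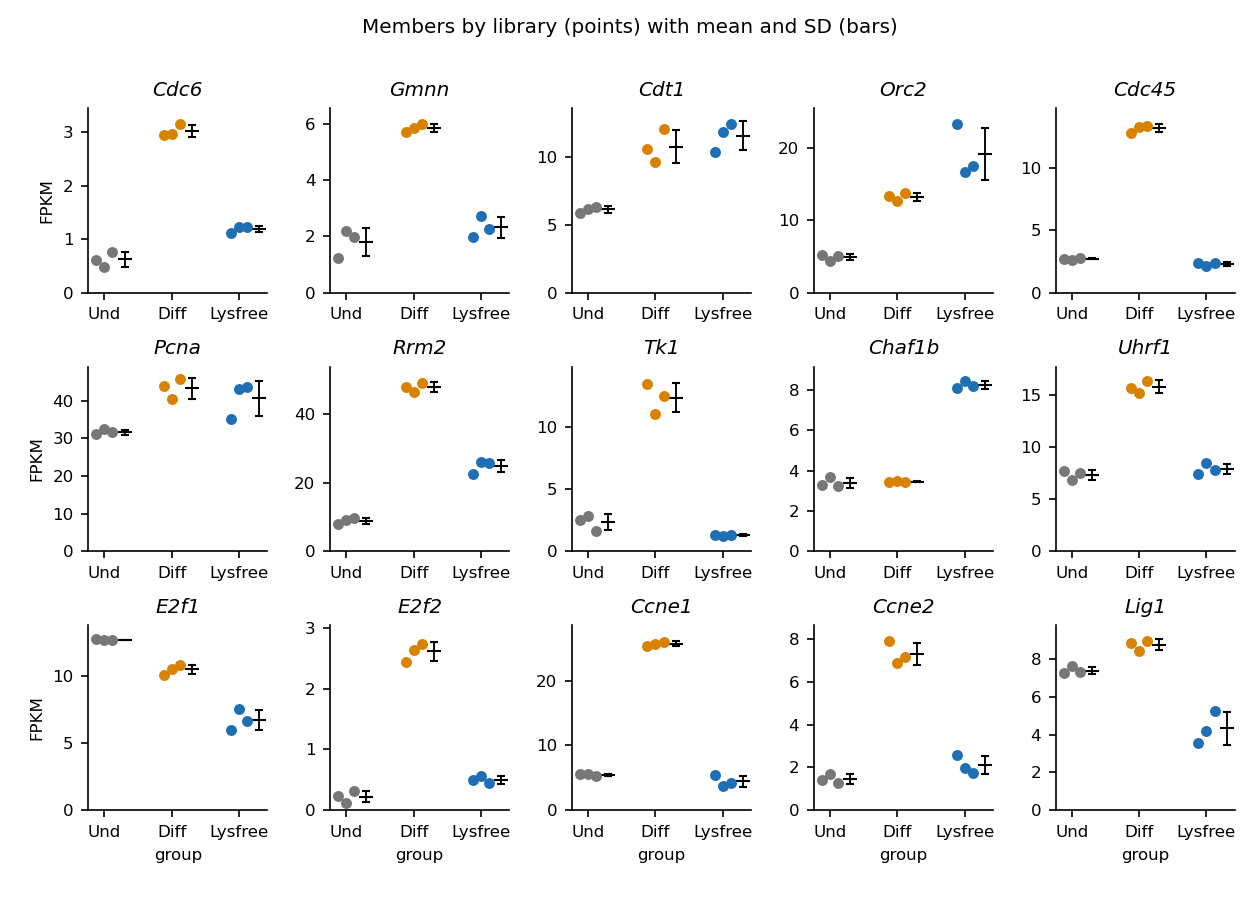
FPKM of 15 members in the Undifferentiated (Und), Differentiated (Diff) and Lysfree groups, with a point for each of the 3 libraries and bars for the group mean and SD, each panel on its own axis from 0. Cdc45, Tk1 and Ccne1 are high in the Differentiated libraries alone, Cdt1 and Pcna are higher in both hormone groups than in Undifferentiated cells, and E2f1 is lowest in the Lysfree libraries.

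Set in order of mean level, Pcna was the most abundant member in Undifferentiated (31.7 ± 0.679 FPKM, SD, n = 3) and Lysfree cells (40.7 ± 4.66), and Rrm2 in Differentiated cells (47.7 ± 1.37, against 43.3 ± 2.71 for Pcna, with no overlap between their libraries). In Lysfree cells Mcm2 came next at 33.0 ± 2.21 and then Pold2 at 31.0 ± 5.09, which do not differ beyond their spread. E2f2 was the least abundant in Undifferentiated (0.220 ± 0.0933) and Lysfree cells (0.501 ± 0.0637). In Differentiated cells the lowest was Orc1 at 1.56 ± 0.228, within the spread of Mcm10 at 1.63 ± 0.0369. This order, like the ratios between genes above, depends on the gene lengths used to scale FPKM. In counts, Mcm2 exceeded Pcna in the Undifferentiated libraries (2195, 2190 and 1701 against 1589, 1707 and 1216).

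Related gene lists give a setting for the members. Beside their counts stand the shares of genes with a mean of at least 1 FPKM in a group that passed upward and downward, which were 39% and 37.7% in Differentiated against Undifferentiated, 33.9% and 30.6% in Lysfree against Differentiated, and 32.8% and 27.5% in Lysfree against Undifferentiated cells. Of 80 other replication genes, 62 rose and 7 fell in Differentiated against Undifferentiated cells (edgeR, median log2 fold change 0.64), 17 rose and 37 fell in Lysfree against Differentiated (-0.22), and 42 rose and 11 fell in Lysfree against Undifferentiated cells (0.43). Asf1b, a histone chaperone, rose by 2.67 ± 0.10 with hormones, and Dbf4, the activator of the kinase that fires origins, rose by 1.74 ± 0.12 in Lysfree over Undifferentiated cells (adjusted p = 1.3e-148 and 2e-13, edgeR). Pold4, a small subunit of polymerase delta, fell by 2.40 ± 0.14 in Lysfree against Differentiated cells (adjusted p = 7.5e-12, edgeR). All 33 mitosis genes rose with hormones (median 1.92) and all 33 fell in Lysfree against Differentiated cells (-1.75), whereas 6 rose and 3 fell against Undifferentiated cells (0.10). Ccnb2, a mitotic cyclin, fell by 3.28 ± 0.16 without lysine relative to Differentiated and by 1.51 ± 0.22 relative to Undifferentiated cells (adjusted p = 6.5e-13 and 9.7e-07, edgeR). Of 12 G1 regulators, 6 rose and 5 fell with hormones, 4 rose and 4 fell in Lysfree against Differentiated, and 4 rose and 4 fell against Undifferentiated cells, which is near those shares. Ccnd1, a D-type cyclin, and Cdkn2b, an inhibitor of its kinases, rose by 1.85 ± 0.09 and 2.34 ± 0.11 in Lysfree over Differentiated cells (adjusted p = 5.7e-13 and 3.3e-13, edgeR). Cdkn2c and Cdkn2d, inhibitors of the same kinases, went the other way there, with -2.16 ± 0.11 and -1.44 ± 0.14 (adjusted p = 9e-13 and 4.6e-08, edgeR). Canonical histone mRNAs mostly lack poly A tails. The histone list was taken by symbol and also holds linker histones that are not canonical, such as H1f0 and H1foo. Of 61 genes of this list tested, 20 rose and 2 fell with hormones, where 23% and 23.2% of all genes did. In Lysfree against Differentiated cells 2 rose and 12 fell, where 19.7% and 18.8% of all genes did. The number that fell is near the share of all genes. Of 59 tested, 9 rose and 1 fell in Lysfree against Undifferentiated cells, where 18% and 17.1% of all genes did. H1f0 is in these counts, with log2 fold changes of -0.19, 1.33 and 1.15 in the same order (adjusted p = 0.00063, 3.6e-11 and 1.2e-11, edgeR). The counts therefore do not describe canonical histones alone.

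**Figure D4:**
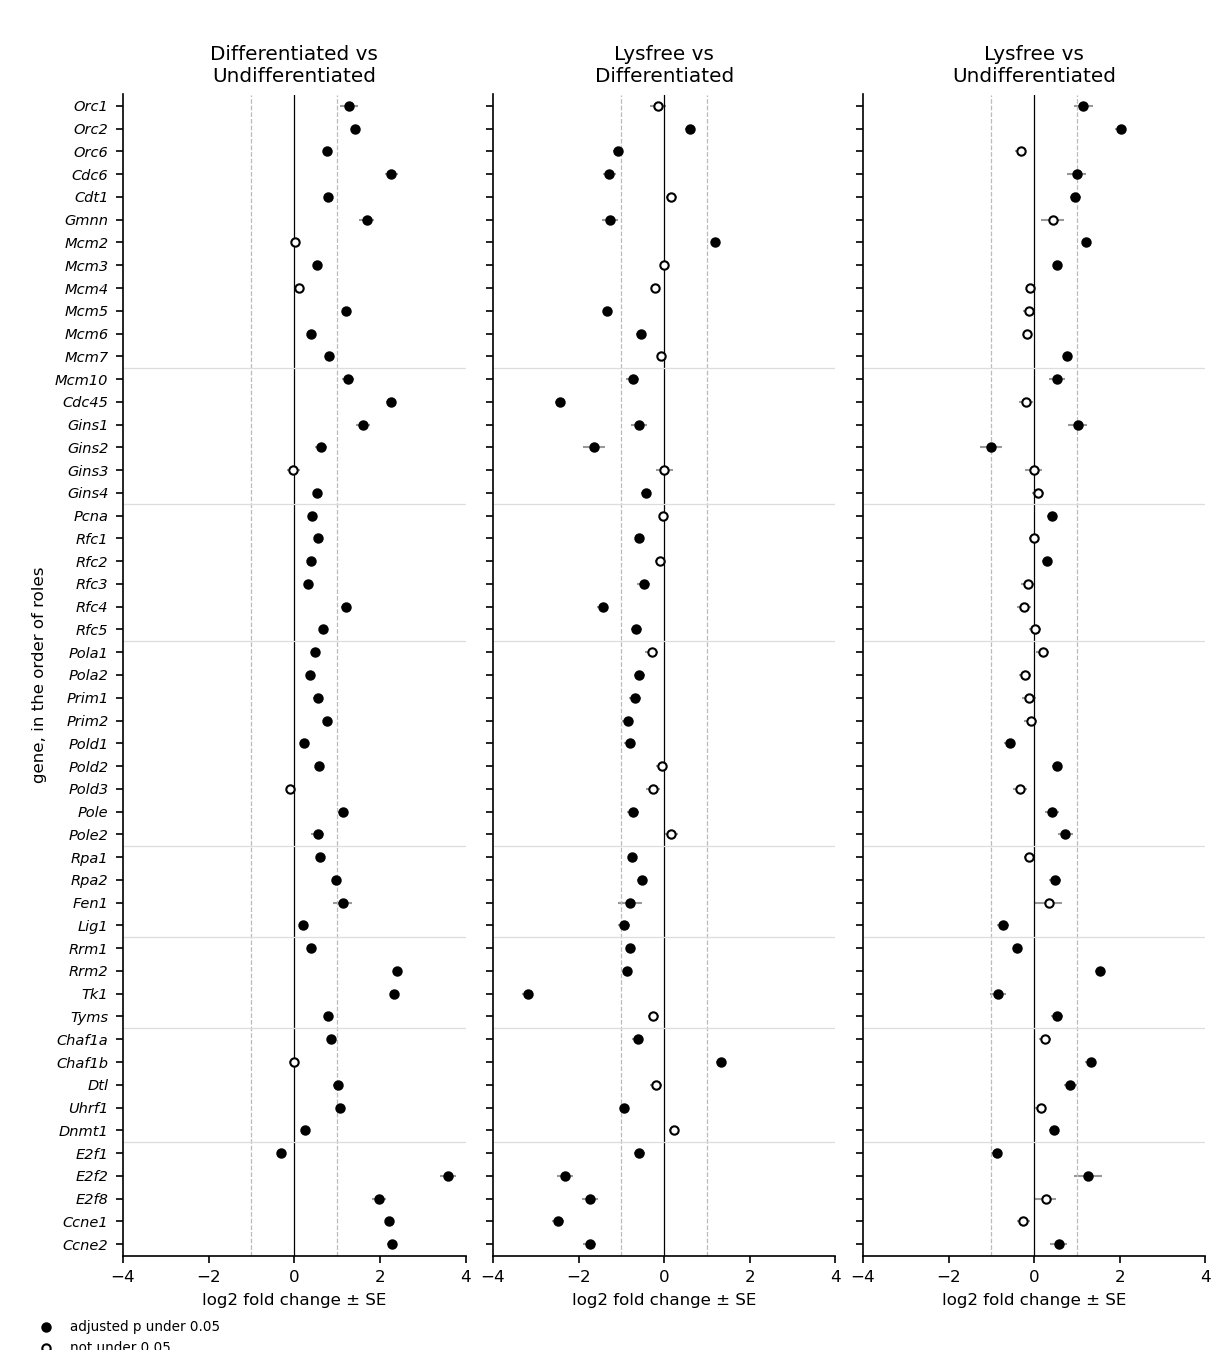
Log2 fold change with its SE (edgeR) of each of the 51 members, in the order of roles, for the 3 comparisons, with filled points for an adjusted p under 0.05, open points for the rest, and dashed lines at a 2-fold change. Filled points lie right of 0 for 45 members in Differentiated vs Undifferentiated and left of 0 for 33 members in Lysfree vs Differentiated, while in Lysfree vs Undifferentiated 22 lie right and 6 left.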

How the data were processed

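Poly A RNA of 9 libraries was sequenced as paired-end reads and aligned to mm10. HISAT2 2.0.5 and featureCounts 1.5.0-p3 are named in the submitters' processing notes. The authors deposited raw counts for each gene and, as a second table, FPKM values. The annotation release and strand setting are not given in the sources used here. Groups came from the sample titles.

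Counts were tested with edgeR 4.0.16 (glmQLFit, glmQLFTest, TMM, Benjamini-Hochberg over every gene counted in at least 1 of the 6 libraries compared) in R 4.3.3. Passing meant an adjusted p under 0.05, and 2-fold calls needed in addition a log2 value of 1 or more in either direction. With 3 libraries against 3, an exact permutation test cannot go below p = 0.1, so p-values were taken from the edgeR model over all genes. SE is the log2 fold change divided by the square root of F. FPKM served for levels and non-overlap. Alternatives were DESeq2 1.42.0, limma 3.58.1 on log2(FPKM + 1) and log2(FPKM + 0.1), other scalings and filters (filterByExpr, at least 10 counts), a single fit of all 9 libraries, a replicate block, a test against a 2-fold change and leaving out each library. The tests were checked on simulated counts.

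Library values were given for the Mcm2-7 subunits and other central members, for the 5 largest rises and falls per comparison and for members passing against the majority. Of other lists, genes named were taken from the 2 largest rises and falls in each comparison with a mean of at least 1 FPKM. Members and lists were chosen with earlier results of these data known. Total counts were 15880144 to 21806693, and low counts, from 13, limit E2f2, Gins2 and Fen1. Preadipocyte and fibroblast markers fell in 7 of 7 cases with hormones, where 23.2% of all genes fell. In Lysfree cells 6 rose against Differentiated (19.7% of all genes), while 2 rose and 4 fell against Undifferentiated cells (18% and 17.1%).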

Additional observations from a re-analysis of the deposited data

How the results depend on the processing

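In Differentiated against Undifferentiated cells, the members' median log2 fold change of 0.76 was 0.60 with limma on log2(FPKM + 1) and 0.69 to 0.79 on leaving out a library, and 13 to 19 members rose at least 2-fold under all alternatives. In Lysfree against Undifferentiated cells, 7 members were at least 2-fold higher, which became 3 in the test against a 2-fold change, 4 with limma on log2(FPKM + 1) and 6 to 8 on leaving out a library. The count 2-fold lower, 0, became 1 with DESeq2, median of ratios, filterByExpr, at least 10 counts or all 9 libraries in a fit, and 0 to 2 on leaving out a library, since Gins2 lay at the limit. The median of 0.25 was 0.21 with filterByExpr, 0.19 with at least 10 counts, 0.10 and 0.18 with limma on log2(FPKM + 1) and log2(FPKM + 0.1), and 0.19 to 0.26 on leaving out a library. Members passing lower, 6, ranged from 5 to 13, the latter without Lysfree 1. In Lysfree against Differentiated cells, the median of -0.59 was -0.52 with library sizes alone, -0.65 with at least 10 counts, -0.66 with limma on log2(FPKM + 0.1) and -0.67 to -0.59 on leaving out a library. There, 2 members at least 2-fold higher became 1 in the test against a 2-fold change, and 3 passing higher became 3 to 5, with 5 without Lysfree 1. Among the members recomputed under all alternatives, signs turned only for values that did not pass: in Differentiated against Undifferentiated cells Mcm2 (-0.03 with library sizes alone, -0.01 without Undifferentiated 2, -0.02 without Differentiated 3, -0.02 to 0.04 on leaving out a library) and Chaf1b (0.02 with either limma fit, -0.04 to 0.06 on leaving out a library), and in Lysfree against Differentiated cells Mcm7 (0.01 with library sizes alone) and Pcna (0.05 with library sizes alone, 0.01 without Differentiated 3, 0.05 without Lysfree 1, -0.08 to 0.05 on leaving out a library). Without Lysfree 1 the sign also turned for Gins3 (0.14), Rfc3 (0.01) and Pola1 (-0.06) against Undifferentiated and for Pold2 (0.04) against Differentiated cells, none passing. Against Differentiated cells, Gins3 moved there from 0 to 0.16 and Mcm3 from 0 to -0.03, neither passing. The cause was not tested. Over named members, 1166 of the recomputed values kept direction and side of the threshold, 18 no longer passed, 21 newly passed and 10 turned. Replicate numbers did not pair the libraries (correlations of same-numbered deviations from -0.08 to 0.12), and the replicate block gave 45 members higher and 1 lower, 22 and 6, and 33 lower and 3 higher in the same 3 comparisons, with 1 member 2-fold lower in Lysfree against Undifferentiated cells. Low counts limit E2f2, Gins2 and Fen1, and no source states the strand setting for the 15 members that overlap a protein-coding gene.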
